A study of Mus musculus with 6 samples.

Results

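Globins and 5 further genes of red blood cells were followed in RNA of mouse optic nerve, 9 genes out of the 52636 in the deposited table. They are the beta globins Hbb-bs and Hbb-bt, the alpha globins Hba-a1 and Hba-a2, and Alas2, Slc4a1, Bpgm, Fech and Epb42, taken by symbol from the combined table of all 6 libraries. The 3 hND6 libraries are labelled as treated with mutant human ND6 (T14484C), a mitochondrial gene of respiratory complex I, and the 3 mCherry libraries are labelled with mCherry, a red fluorescent protein. Per the labels, a lentivirus with the mutant gene was injected into the eyes; that text stands beside both groups, so what the mCherry group received is known only from its name. Strain, age, the promoter of the construct, whether the animals were perfused to remove blood, and whether each library stands for its own animal are not stated in the sources used here, so p-values measure only the spread between libraries, which may be technical. The 9 genes were picked because their levels differed between these same groups, so their differences are described without a test.

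Haemoglobin, the oxygen carrier of red cells, pairs alpha with beta globin chains, each holding a heme. Globin messages are made in great amounts by red cell precursors in the bone marrow, and the young red cells released into the blood (reticulocytes) still carry them, with that of the erythroid enzyme of heme synthesis, before losing their RNA. An optic nerve contains blood vessels, and low globin expression has also been described in some neurons and glia. Adult mice of strains such as C57BL/6 carry the beta globin pair s and t, while some other strains carry a pair named b1 and b2.

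Oligodendrocyte markers of the optic nerve were abundant, with Mbp, the myelin basic protein gene, at 2643 to 3009 FPKM (fragments per length of exon and per mapped read, scaled) in hND6 and 1818 to 2783 FPKM in mCherry. Libraries held between 20253637 and 34758873 reads assigned to genes. Library mCherry 3, and to a lesser degree hND6 1, held more neuronal transcript than the rest: the summed level of 12 neuronal genes was 39.9 to 268 FPKM in hND6 and 35.6 to 769 FPKM in mCherry, and the results below are also given without both libraries where these change them.

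The 4 globin genes sit as tandem pairs, and the members of a pair are almost the same in their coding sequence, which bears on how reads could be told apart. Hbb-bs lies at chr7:103826534-103827928 and Hbb-bt at chr7:103812524-103813996 on the minus strand of the mouse build mm10 (GRCm38). Hba-a1 lies at chr11:32283511-32284465 and Hba-a2 at chr11:32296489-32297298 on the plus strand. In the GENCODE transcripts of that build, the coding sequences of the beta pair (444 bases each) differ at 1 position, and those of the alpha pair (429 bases each) also at 1. The stretches around these positions are printed 5′ to 3′, counted from the first base of the start codon (bases 402 to 432 for beta, 366 to 396 for alpha), with the differing base in capitals.
Hbb-bs: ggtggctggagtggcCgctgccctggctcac
Hbb-bt: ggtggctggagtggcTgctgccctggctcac
Hba-a1: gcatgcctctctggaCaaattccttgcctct
Hba-a2: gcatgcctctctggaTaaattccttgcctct
Of all 50-base windows of the Hbb-bs transcript 65.8% also occur in Hbb-bt, and 58.3% of those of Hbb-bt occur in Hbb-bs. For the alpha pair, 67.5% of the windows of Hba-a1 occur in Hba-a2 and 86.9% of those of Hba-a2 in Hba-a1. The sources used here do not say how reads that match both copies were counted, so the level of a single copy, and of globins against other genes, is uncertain.

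The sequences ahead of the transcription start are shown for Hbb-bs, Hbb-bt, Hba-a1 and Alas2, whose levels went up and down together across the libraries. The set of RefSeq (GRCm38.p6) promoter sequences used here held the 250 bases before the RefSeq start for 7 of the 9 genes. It had no entry for Slc4a1 and Fech. In the lines here, read on each gene's own strand, capitals mark GATAA (the core letters of sites for GATA factors such as GATA1), CCNCNCCC (letters of sites for KLF factors such as KLF1), CCAAT and TATAA, on either strand. The windows are chr7:103827929-103828178 (minus strand), chr7:103813924-103814173 (minus), chr11:32283422-32283671 (plus) and chrX:150547167-150547416 (plus). For Hbb-bt, Hba-a1 and Alas2 the deposited table places the gene start further upstream than RefSeq, inside these windows.
Hbb-bs: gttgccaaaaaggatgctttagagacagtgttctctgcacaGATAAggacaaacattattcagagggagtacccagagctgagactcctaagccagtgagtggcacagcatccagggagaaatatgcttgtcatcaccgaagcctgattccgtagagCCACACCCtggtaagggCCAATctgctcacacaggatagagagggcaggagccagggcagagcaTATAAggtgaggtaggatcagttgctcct
Hbb-bt: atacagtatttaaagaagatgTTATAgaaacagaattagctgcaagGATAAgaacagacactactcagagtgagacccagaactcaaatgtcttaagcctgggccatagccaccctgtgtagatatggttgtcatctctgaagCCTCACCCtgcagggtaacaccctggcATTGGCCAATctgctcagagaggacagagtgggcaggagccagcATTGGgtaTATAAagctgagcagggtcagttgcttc
Hba-a1: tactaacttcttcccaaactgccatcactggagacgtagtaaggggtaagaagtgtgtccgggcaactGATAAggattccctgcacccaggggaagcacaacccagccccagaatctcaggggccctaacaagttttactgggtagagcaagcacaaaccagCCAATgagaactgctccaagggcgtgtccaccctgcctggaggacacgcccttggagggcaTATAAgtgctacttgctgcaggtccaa
Alas2: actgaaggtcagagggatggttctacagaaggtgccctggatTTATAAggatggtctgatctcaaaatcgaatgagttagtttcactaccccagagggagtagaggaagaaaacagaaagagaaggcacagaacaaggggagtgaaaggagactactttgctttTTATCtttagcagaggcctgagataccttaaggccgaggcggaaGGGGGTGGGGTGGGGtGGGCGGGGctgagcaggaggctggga
The windows of Hba-a1 and Hba-a2 agree over 247 of 253 aligned positions, while those of Hbb-bs and Hbb-bt agree over 185 of 261 aligned positions. All 4 globins and Alas2 held GATAA and TATAA, which occur in 23.0% and 23.5% of the same windows of 27025 genes. In the 4 globins a TATAA match begins 27 to 30 bases before the start, and in Alas2 matches on both strands, which overlap each other, begin 207 and 208 bases before it. Matches to CCNCNCCC also overlap each other in Alas2. CCAAT (34.5% of all windows) was found in the 4 globins and not in Alas2, and CCNCNCCC (45.6%) in Hbb-bs, Hbb-bt and Alas2. The Bpgm window held CCAAT and CCNCNCCC, and that of Epb42 held GATAA and TATAA. These are matches of letters, not measured binding.

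Beta globin transcripts stood between 5 and 6 times as high in hND6 as in mCherry. Hbb-bs, the more abundant beta globin transcript here, had 848, 1608 and 1132 FPKM in hND6 replicates 1 to 3, against 288, 109 and 226 FPKM in mCherry replicates 1 to 3. The lowest hND6 library lay 2.95 times above the highest mCherry library, and hND6 2 lay 14.8 times above mCherry 2. The log2 fold change of Hbb-bs was 2.59 ± 0.41 (SE from limma, 3 libraries a group, on the log2(FPKM + 0.5) scale). In hND6, Hbb-bs ranked 15th to 19th by FPKM of all genes in the table, and in mCherry 57th to 296th. Hbb-bt, the less abundant one, had 79.6, 145 and 110 FPKM in hND6 and 29.2, 10.4 and 23.8 FPKM in mCherry, a log2 fold change of 2.45 ± 0.41. Both genes were highest in hND6 2 and lowest in mCherry 2, and the groups did not overlap.

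Alpha globin transcripts followed the same order of libraries. Hba-a1 had 285, 551 and 351 FPKM in hND6 and 102, 39.7 and 76.3 FPKM in mCherry, a log2 fold change of 2.48 ± 0.39. Hba-a2 had 136, 265 and 173 FPKM in hND6 and 40.5, 17.3 and 34.3 FPKM in mCherry, a log2 fold change of 2.65 ± 0.37. For each of the 4 globins the order from high to low was hND6 2, hND6 3, hND6 1, mCherry 1, mCherry 3 and mCherry 2. Together the 4 globins took 0.0867%, 0.160% and 0.109% of all assigned reads in hND6 1 to 3, against 0.0294%, 0.0108% and 0.0231% in mCherry 1 to 3. The widest exact 95% binomial interval, that of hND6 2, ran from 0.159% to 0.162%, so counting error is far smaller than the spread between libraries. In these bulk samples more red cells and more globin RNA per cell cannot be told apart.

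**Figure D1:**
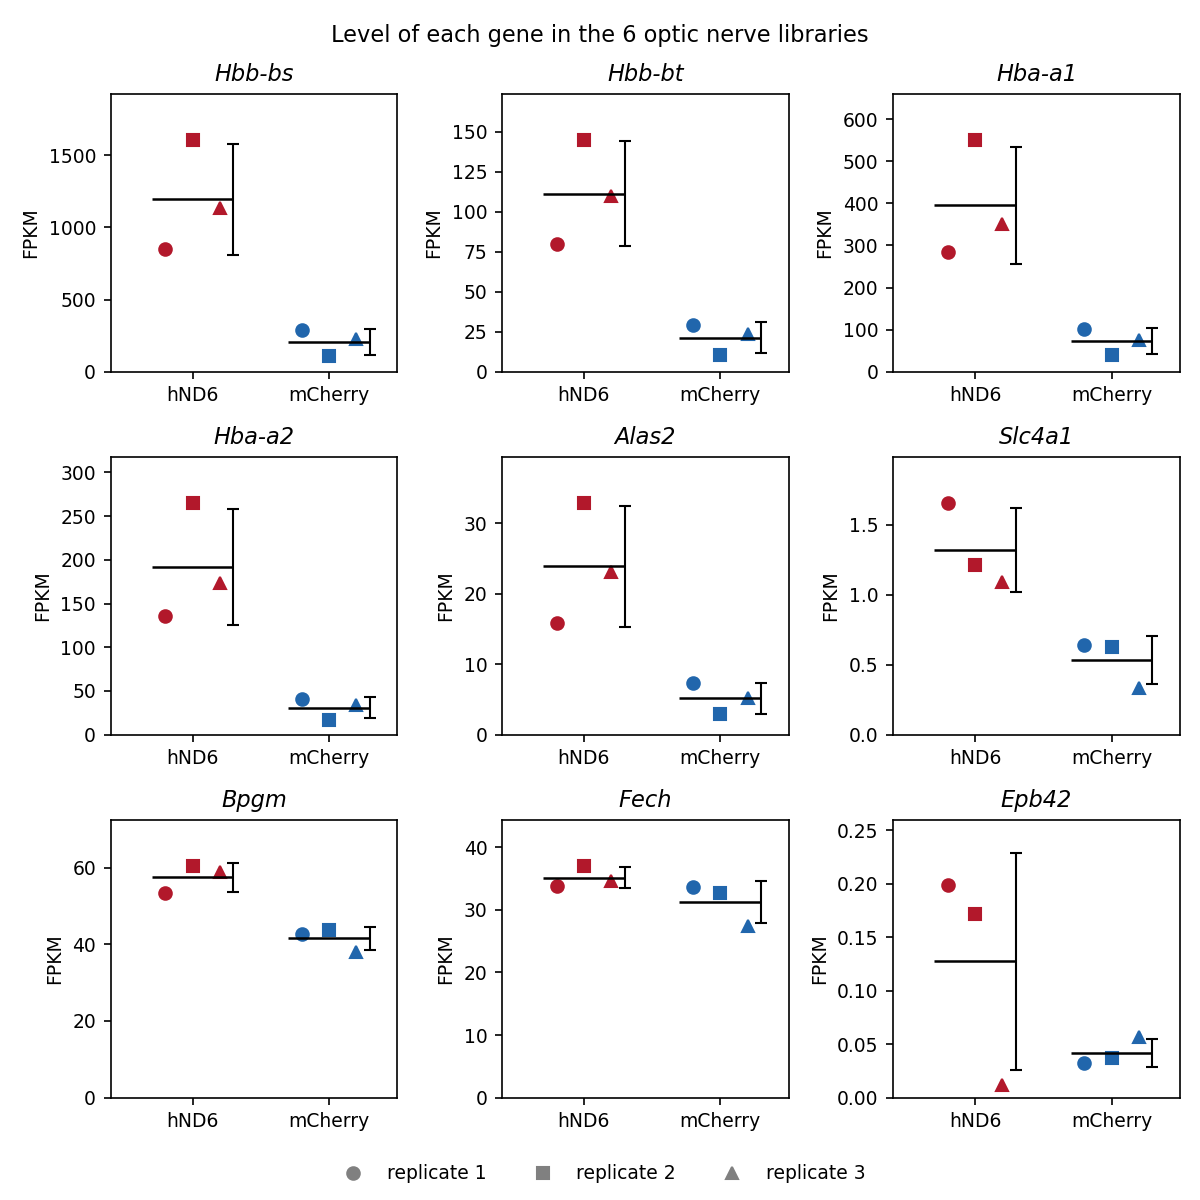
FPKM of each of the 9 genes in the 3 hND6 (red) and 3 mCherry (blue) libraries, with a horizontal line at the group mean and bars of 1 SD. The groups lie apart for the 4 globins, Alas2, Slc4a1 and Bpgm, nearly touch for Fech (33.8 against 33.7 FPKM) and overlap for Epb42.

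Among the red cell genes outside the globins, Alas2 alone varied by a similar factor. Alas2, the erythroid form of the first enzyme of heme synthesis, lies at chrX:150547375-150570638 and had 15.8, 32.9 and 23.1 FPKM in hND6 and 7.31, 2.96 and 5.13 FPKM in mCherry. Its log2 fold change was 2.13 ± 0.37, and its libraries had the same order as those of the globins. Apex2, a DNA repair gene, overlaps the end of Alas2 on the opposite strand, and the sources used here do not say whether reads were counted by strand.

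Slc4a1 encodes band 3, the anion exchanger that is the most abundant protein of the red cell membrane. Its transcript was scarce, with 1.66, 1.21 and 1.09 FPKM (258, 109 and 106 reads) in hND6 and 0.638, 0.624 and 0.334 FPKM (88, 94 and 39 reads) in mCherry. The log2 fold change was 0.82 ± 0.24 with 0.5 added, 1.19 with 0.1 added and 1.36 in limma's voom on recovered reads, and it was 0.55 without mCherry 3 and hND6 1. The groups did not overlap, yet hND6 1, the hND6 library with the least globin, had the most Slc4a1. Epb42, protein 4.2, which binds band 3 to the skeleton under the membrane, had 28, 14 and 1 reads in hND6 and 4, 5 and 6 reads in mCherry. Its groups overlapped, and its mean was under the minimum of 0.5 FPKM for testing.

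The remaining pair of enzymes was abundant in both groups and differed less than the globins and Alas2, Bpgm more than Fech. Bpgm makes 2,3-bisphosphoglycerate, which lowers the oxygen affinity of haemoglobin in red cells. It had 53.3, 60.5 and 58.8 FPKM in hND6 and 42.7, 43.8 and 38.1 FPKM in mCherry, a log2 fold change of 0.47 ± 0.09. Fech inserts iron into protoporphyrin in the last step of heme synthesis in all cells. It had 33.8, 37.0 and 34.6 FPKM in hND6 and 33.7, 32.7 and 27.5 FPKM in mCherry, a log2 fold change of 0.17 ± 0.10. With every library scaled to the same sum, which moved the median over all genes to -0.14, the value was 0.32 for Bpgm and 0.03 for Fech, against 2.30 to 2.51 for the 4 globins. Of the 8 members with a mean of at least 0.5 FPKM, 8 lay higher in hND6 with groups that did not overlap, as did 12.6% of all 16157 tested genes. Since the members were chosen from this comparison, nothing is read from that count.

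**Figure D2:**
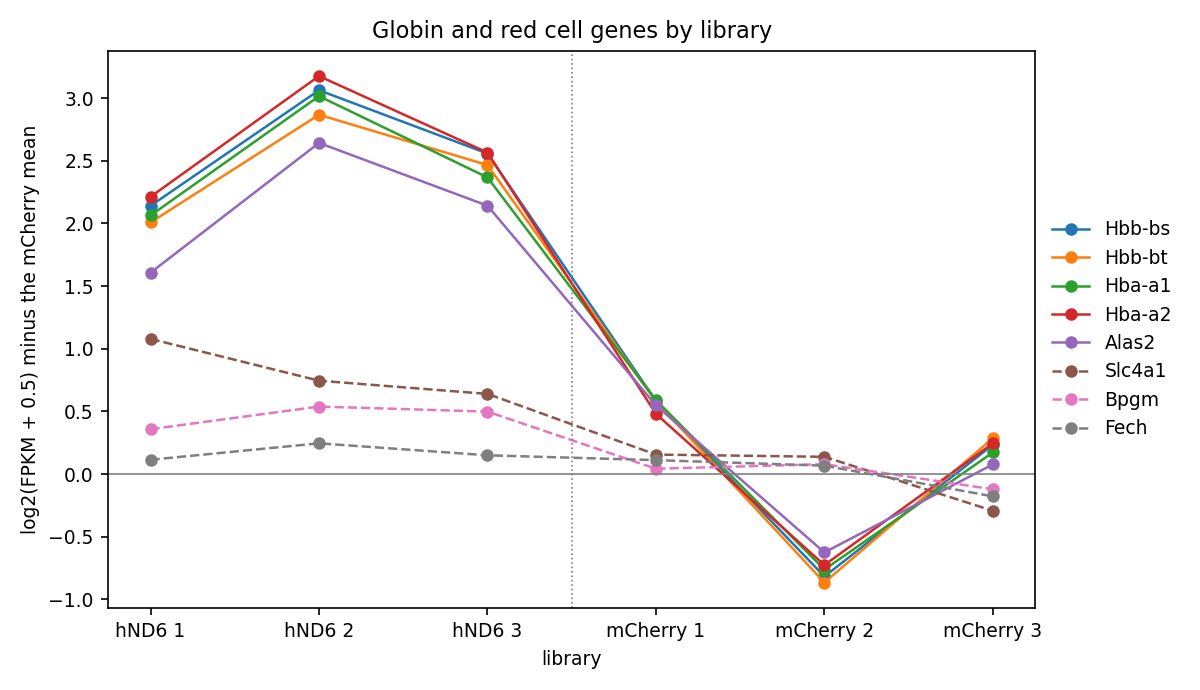
log2(FPKM + 0.5) of 8 genes in each library, minus the mean of the 3 mCherry libraries of the same gene. The 4 globins and Alas2 (solid lines) run together, up to 3.18 above the mCherry mean in hND6 2 and down to -0.87 in mCherry 2, while Slc4a1, Bpgm and Fech (dashed lines) stay between -0.29 and 1.08.

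Globin chains kept nearly the same proportions in every library although their level varied by up to 15.4 times. The ratio of summed beta to summed alpha FPKM was 2.21, 2.15 and 2.37 in hND6 1 to 3, against 2.22, 2.09 and 2.26 in mCherry 1 to 3. Its mean was 2.24 ± 0.114 in hND6 and 2.19 ± 0.0873 in mCherry (SD, n = 3 each). The log2 difference was 0.03, with an SD within groups of 0.07, and it was -0.047 with geometric means of the pair members. The highest ratio of any library was 1.13 times the lowest, beside a coefficient of variation of 32.1% in hND6 and 43.8% in mCherry for Hbb-bs itself.

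Within the beta pair, Hbb-bt gave 9.51%, 9.16% and 9.77% of the reads in hND6 and 10.2%, 9.70% and 10.5% in mCherry, and the groups overlapped. Within the alpha pair the groups lay apart by a small amount. Hba-a2 gave 27.4%, 27.6% and 28.1% of the alpha reads in hND6 and 23.9%, 25.6% and 26.3% in mCherry. The exact 95% intervals reached from 26.5% to 29.2% over the hND6 libraries and from 22.4% to 28.3% over the mCherry libraries, so only mCherry 1, with an upper bound of 25.5%, lay clear of every hND6 interval. Intervals cover counting error only, and each library of mCherry held 1237 to 2847 alpha reads against 7299 to 10524 in hND6.

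Globin levels per Alas2 also differed modestly. Summed globin FPKM was 85.5, 78.2 and 76.6 times that of Alas2 in hND6, against 62.9, 59.4 and 70.1 times in mCherry, so hND6 libraries had more globin per Alas2 in each case. The log2 difference was 0.32, with an SD within groups of 0.10, and the highest ratio of any library was 1.44 times the lowest. This is a description without a test. Whether reads of Apex2, which overlaps Alas2 on the opposite strand, enter the Alas2 values is not known. By reads, Alas2 made up 3.59% to 3.99% of Alas2 and globin reads in hND6 and 4.33% to 5.07% in mCherry, with 200 Alas2 reads in mCherry 2, the fewest of any library. The exact interval of mCherry 3 (3.84% to 4.87%) overlapped those of hND6 2 (3.71% to 4.13%) and hND6 3 (3.75% to 4.24%).

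Against the other red cell genes the globins did not keep a fixed ratio. Bpgm and Fech varied far less than the globins, with coefficients of variation within groups of 4.81% to 10.6%. The ratios to them therefore mostly follow the globin levels. Whether the RNA of Bpgm and Fech came from red cells was not tested. Summed globins stood at 25.3, 42.5 and 30.1 times Bpgm in hND6 and at 10.8, 4.02 and 9.46 times Bpgm in mCherry. Against Fech the multiples were 39.9, 69.4 and 51.0 in hND6 and 13.6, 5.39 and 13.1 in mCherry. Per Slc4a1 the groups overlapped, at 813 to 2118 in hND6 and 282 to 1079 in mCherry. Over the sum of the 5 red cell genes, which is mostly Bpgm and Fech, the ratio was 15.8 ± 3.38 in hND6 and 4.24 ± 1.78 in mCherry (SD, n = 3 each), a log2 difference of 1.99, which was 1.57 without mCherry 2 and 2.22 without mCherry 1.

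**Figure D3:**
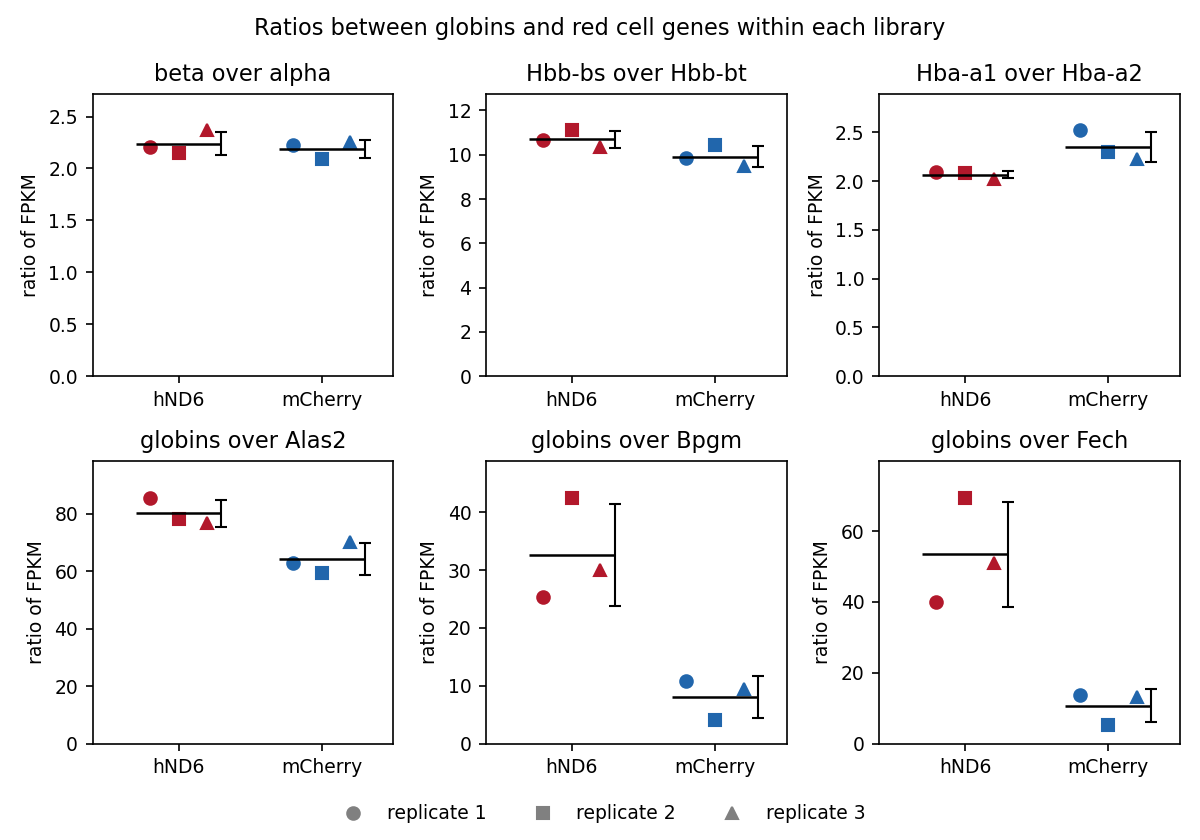
Ratios of FPKM within each of the 3 hND6 (red) and 3 mCherry (blue) libraries, with group means and bars of 1 SD. Beta over alpha stays between 2.09 and 2.37 in all 6 libraries, while summed globins over Bpgm run from 25.3 to 42.5 in hND6 and from 4.02 to 10.8 in mCherry.

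The other globins of the alpha and beta clusters gave few or no reads. Embryonic Hbb-bh1 and Hba-x, and Hbb-bh2, were listed at 0 in all 6 libraries, and embryonic Hbb-y had 8 reads in hND6 and 13 in mCherry. The theta globin Hbq1b had 10 reads in hND6 and 1 in mCherry. Tubb3, a tubulin of neurons, was also listed at 0 in all 6 libraries although other neuronal genes were present, so a gene listed at 0 may not be absent. The globins made outside red cells were measured in both groups. Cygb, cytoglobin of connective tissue, had 4.74 ± 0.524 FPKM in hND6 and 4.44 ± 1.13 FPKM in mCherry (limma adjusted p = 0.822). Ngb, neuroglobin of nerve cells, had 0.550 to 1.81 FPKM in hND6 and 0.917 to 1.08 FPKM in mCherry (limma adjusted p = 0.969).

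No gene of the wider red cell programme passed the test. Of 56 tested genes in lists of heme synthesis, red cell membrane, red cell enzymes, erythroid transcription factors and reticulocyte maturation, 0 passed limma's adjusted p threshold of 0.05 in either direction, where 0.0433% of all tested genes passed as higher and none as lower. At an unadjusted p under 0.05 there were 13, all higher in hND6, where 1472 of all 16157 tested genes were higher and 978 lower at that p. On recovered reads limma's voom called 0 (14 unadjusted). Groups did not overlap for 14 of the 56 as higher and 1 as lower, against 12.6% and 10.2% of all genes, and the median log2 fold change was 0.15, beside -0.01 over all genes. Counting the 6 other globins of the alpha and beta clusters as well, 26 listed genes averaged under 0.5 FPKM.

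Of the other steps of heme synthesis, 11 genes were tested and the median log2 fold change was 0.19, or 0.052 with every library scaled to the same sum. Cpox, which makes protoporphyrinogen, had 50.4 ± 3.39 FPKM in hND6 and 36.4 ± 4.65 FPKM in mCherry, a log2 fold change of 0.47 with limma adjusted p = 0.193. For Urod, the enzyme before it, the log2 fold change was 0.36 (adjusted p = 0.199), and for Tmem14c, a mitochondrial porphyrin transporter, it was 0.04 (adjusted p = 0.908). Red cell membrane and skeleton genes had a median of 0.04 over 14 tested of 22, or -0.091 with every library scaled to the same sum. Stom, stomatin, had 17.5 ± 1.60 FPKM in hND6 and 12.1 ± 1.76 FPKM in mCherry (adjusted p = 0.199), and Gypc, glycophorin C, had 8.95 ± 0.226 FPKM in hND6 and 6.21 ± 1.10 FPKM in mCherry (adjusted p = 0.21). The glucose transporter gene Slc2a1 and Cd47, the signal that spares cells from engulfment, were the most abundant of that list, with log2 fold changes of 0.17 and 0.07 (adjusted p = 0.619 and 0.747). Rhag, the Rh-associated glycoprotein of red cells, was near 0, with 18 reads in hND6 and 11 in mCherry.

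Red cell enzymes had a median of 0.29 over 12 tested genes, or 0.15 with every library scaled to the same sum. The 12 glial genes of the optic nerve had the same median, 0.29, or 0.15 with that scaling. Of them 10 were positive and 3 had groups apart as higher in hND6, beside 48.6% and 12.6% of all tested genes. Among the glial genes, the log2 fold change was 0.65 for S100b, a glial calcium-binding protein (limma adjusted p = 0.194), and 0.56 for Cnp, a myelin enzyme (adjusted p = 0.255). The part of glial RNA in the enzyme values was not tested. Gpx1, a glutathione peroxidase, had 143 ± 24.7 FPKM in hND6 and 91.3 ± 5.91 FPKM in mCherry, a log2 fold change of 0.63 with limma adjusted p = 0.178. For Cat, catalase, the log2 fold change was 0.35 (adjusted p = 0.202). Car2, a carbonic anhydrase that oligodendrocytes also make, had 388 ± 28.1 FPKM in hND6 and 283 ± 40.8 FPKM in mCherry (adjusted p = 0.243), and Aldh1a1, an aldehyde dehydrogenase, differed by 0.18 on the log2 scale (adjusted p = 0.616). In the reticulocyte list, with a median of 0.16 or 0.015 with that scaling, the log2 fold change was 0.35 for Bnip3l, a receptor for the clearance of mitochondria (adjusted p = 0.207), and 0.24 for Mkrn1 (adjusted p = 0.255), and -0.22 for Bcl2l1, a survival gene (adjusted p = 0.721).

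Among regulators of red cell formation, those confined largely to blood-forming cells gave few reads and more widely used ones did not pass the test. Gata1, the master factor of erythroid cells, had 6 reads in hND6 and 2 in mCherry, and Klf1, the activator of adult beta globin, had 9 in hND6 and 18 in mCherry. The minimum left 4 of the 12 regulators for testing, with a median log2 fold change of 0.07, or -0.075 with every library scaled to the same sum. Tfrc, the transferrin receptor, had 16.4 ± 0.926 FPKM in hND6 and 14.8 ± 3.20 FPKM in mCherry (limma adjusted p = 0.682), and for Ldb1, a partner of GATA factors, the log2 fold change was 0.05 (adjusted p = 0.819). Lmo2 and Tal1, partners of LDB1 that vessels also use, were the other tested regulators, with overlapping groups. Lmo2 had 11.7 ± 0.777 FPKM in hND6 and 11.2 ± 3.23 FPKM in mCherry. Tal1 had 0.907 ± 0.0968 FPKM in hND6 (282 reads) and 0.975 ± 0.127 FPKM in mCherry (368 reads).

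Among markers of other blood cells, some platelet and antibody genes stood higher in hND6. The tested neutrophil genes overlapped between the groups, as most tested genes did. Of the platelet list 7 of 14 genes were tested and 0 passed in limma (4 unadjusted, 3 of them higher in hND6, beside 1472 higher and 978 lower of all 16157; voom 0 and 3). Ppbp, a platelet chemokine, had 2.59, 2.99 and 2.90 FPKM in hND6 and 1.10, 0.139 and 0.180 FPKM in mCherry, a log2 fold change of 1.91 ± 0.37 with limma adjusted p = 0.155. Tubb1, the platelet tubulin, had 0.852, 1.04 and 1.13 FPKM in hND6 and 0.422, 0.150 and 0.194 FPKM in mCherry (1.01 ± 0.25, adjusted p = 0.193). The groups of both genes did not overlap, but their mCherry levels rest on few reads, 36, 5 and 5 for Ppbp and 18, 7 and 7 for Tubb1. Both averaged under 0.5 FPKM in mCherry and were tested only through their hND6 values. Vwf, made by platelet precursors and endothelium, had 12.7 ± 0.683 FPKM in hND6 and 19.3 ± 4.13 FPKM in mCherry (-0.57 ± 0.17, adjusted p = 0.235), and Itgb3, a platelet integrin, differed by 0.16 on the log2 scale (adjusted p = 0.644). The summed level of the platelet list, mostly Vwf, was 27.5 to 29.6 FPKM in hND6 and 26.0 to 30.7 FPKM in mCherry, and among its defining markers Gp1ba was at 0 in all mCherry libraries, with 17 reads in hND6.

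Of the 14 neutrophil genes, all 9 tested overlapped between the groups (0 passed in limma, 0 unadjusted and 0 by voom, 0 unadjusted). Most tested genes overlapped too, as groups lay apart for 12.6% of them as higher in hND6 and 10.2% as lower. The median log2 fold change of the neutrophil genes, -0.09, ranged from -0.37 without hND6 1 to 0.29 without hND6 3. It was 0.08 without mCherry 2 and 0.02 with voom, so it has no settled sign. S100a9, a cytosolic neutrophil gene, had 11.3, 8.18 and 2.53 FPKM in hND6 and 5.33, 7.85 and 4.72 FPKM in mCherry (limma adjusted p = 0.944), and the receptor gene Csf3r had 9.22 ± 1.87 FPKM in hND6 and 10.4 ± 3.10 FPKM in mCherry (adjusted p = 0.801). The summed neutrophil level was 23.0 to 41.3 FPKM in hND6 and 26.4 to 32.6 FPKM in mCherry, and no marker of the list was at 0 in all 6 libraries. T and NK cell genes were scarce, at 4.51 to 8.51 FPKM summed in hND6 and 2.95 to 9.35 FPKM in mCherry. Of 7 tested, 0 passed in limma (0 unadjusted, voom 0 and 0), where 7 of all 16157 tested genes did.

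All 7 genes past the threshold in limma encode immunoglobulin or J chains and were higher in hND6. Of these, 4 are among the 12 tested of the 16 genes in the B and plasma cell list. Jchain, Igha, Ighg2c and Ighg2b averaged 0.253, 0.335, 0.198 and 0.0132 FPKM in mCherry. These 4 reached the minimum of 0.5 FPKM only through their hND6 values, so their calls are not taken as support for a difference. None of the 4 passed with voom, with no filter on low values, with the replicate block, or without hND6 1, mCherry 1 or mCherry 2. Ighg2c, the IgG2c constant gene, had 66.4, 59.5 and 213 FPKM in hND6 and 0.488, 0.0745 and 0.0320 FPKM in mCherry (limma adjusted p = 0.0226). It was highest in hND6 3, whereas the globins were highest in hND6 2. Jchain, highest in hND6 3 as well, had 20.4, 15.0 and 40.9 FPKM in hND6 and 0.449, 0.0866 and 0.223 FPKM in mCherry (limma adjusted p = 0.0226). The summed level of the 16 B and plasma cell genes was 178 to 428 FPKM in hND6 and 37.3 to 50.8 FPKM in mCherry, and none was at 0 in all libraries. Other tested genes of this list under 0.5 FPKM in mCherry were likewise tested only through their hND6 values. The part of platelets, leukocytes and blood volume in the globin difference was not tested.

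**Figure D4:**
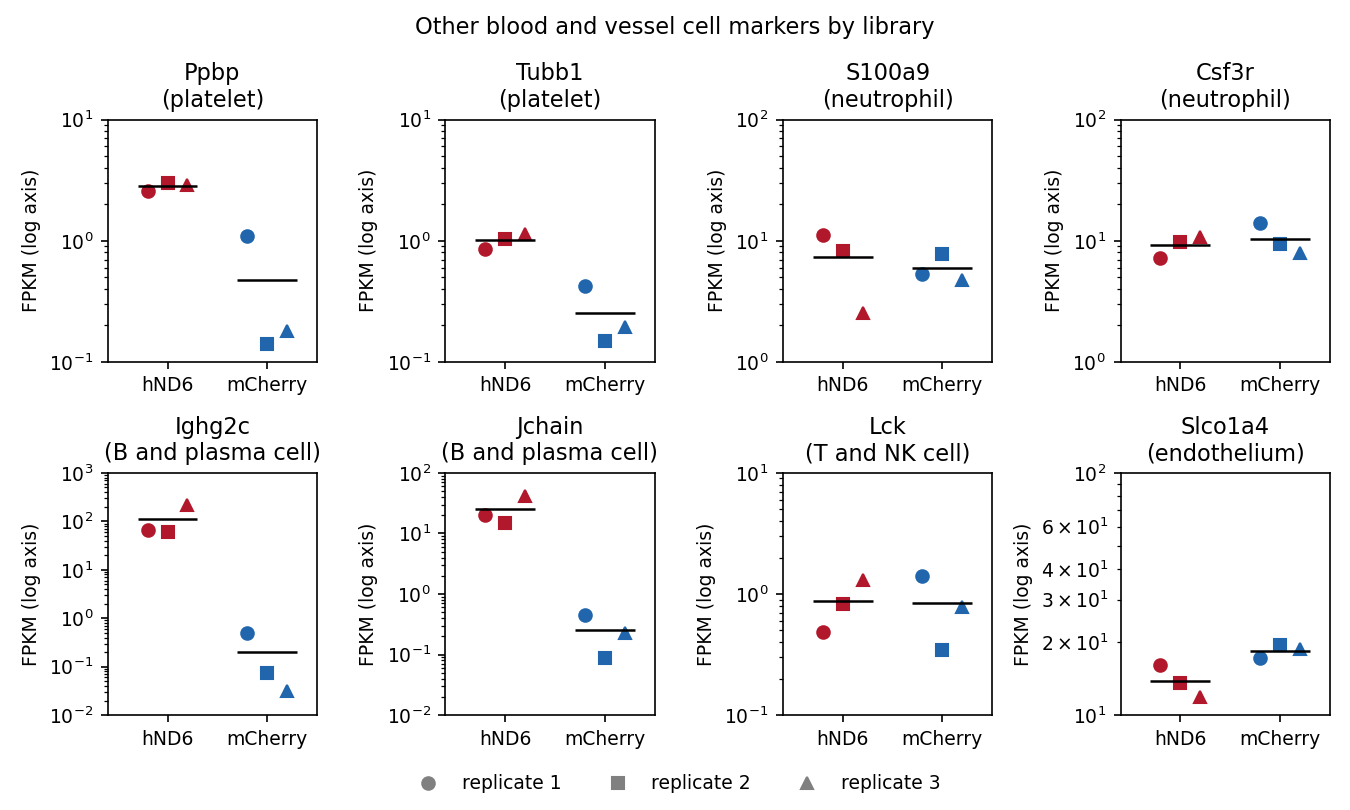
FPKM on log axes of 8 markers in the 3 hND6 (red) and 3 mCherry (blue) libraries, with lines at the group means. Ppbp, Tubb1, Ighg2c and Jchain lie apart as higher in hND6, Slco1a4 lies apart as lower, and S100a9, Csf3r and Lck overlap.

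No vessel or heme clearance gene passed the test, which only 7 of all 16157 tested genes passed. Endothelial genes had a median log2 fold change of -0.21 over 14 genes (-0.34 with every library scaled to the same sum, -0.13 without mCherry 2), with summed levels of 89.6 to 109 FPKM in hND6 and 104 to 119 FPKM in mCherry. Of these 14 genes, 3 had an unadjusted limma p under 0.05, 0 of them higher in hND6 (voom 2). Groups lay apart as lower for 2 of the 14, as for 10.2% of all tested genes. Slco1a4, a transporter of the blood-brain barrier, had 13.9 ± 2.11 FPKM in hND6 and 18.5 ± 1.22 FPKM in mCherry (limma adjusted p = 0.243). In the list of heme breakdown and haemoglobin clearance, 0 of 12 tested genes passed in limma. At an unadjusted limma p under 0.05 there were 2, both higher in hND6 (voom 0 and 3). Of all 16157 tested genes 1472 were higher and 978 lower at that p, so nothing particular to these lists is read from the counts. Ftl1 and Fth1, the ferritin chains that store iron, had 195 ± 17.7 and 5536 ± 436 FPKM in hND6 and 139 ± 35.2 and 3536 ± 590 FPKM in mCherry (adjusted p = 0.285 and 0.425). For Slc48a1, a heme transporter of lysosomes, the log2 fold change was 0.36 (adjusted p = 0.28).

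Likeness to the mean of the 4 globins on the log2 scale was ranked over the 6 libraries with the 9 members left out. Among 12527 tested genes averaging 1 FPKM or more, the highest Pearson correlations were those of Rbm8a, a component of the exon junction complex (0.998), Gdi2 (0.992), the ribosomal protein gene Rpl4 (0.989), Fez2, Pgd, Laptm4a and S100a13 (0.988 each) and Dnajc8 (0.986). Their log2 fold changes were small, 0.30 for Rbm8a, 0.49 for Rpl4 and 0.65 for S100a13, the highest of the 8. With group means subtracted, Tigd2 (0.998), Dnajc8 (0.997), Zdhhc23 (0.994), Socs1 and Rbm8a (0.993 each) were most alike. On the same measures Alas2 reached 0.996 over all libraries and 0.978 with group means subtracted, Bpgm 0.887 and 0.057, Fech 0.639 and 0.103, and Slc4a1 0.779 and -0.399. These correlations are descriptions over 6 libraries that share 1 group difference and, among so many genes, high values are found by search.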

How the data were processed

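Optic nerve RNA of mice, depleted of ribosomal RNA, gave 3 hND6 and 3 mCherry libraries (a stranded TruSeq kit, per the labels). The authors deposited FPKM, one table per library and a combined table with equal values, and gene spans and exon lengths for mm10. Tools listed in the submitters' processing notes are STAR, HTSeq, Trim Galore and CASAVA 1.4, with mm10 and GRCm38 as builds and no roles given. Multiplied by exon length, at least 99.99% of a library's values above 0 came out as whole reads (within 0.1 read), so reads were recovered, and depths ran from 20253637 to 34758873.

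Testing covered the 16157 genes averaging 0.5 FPKM or more, on log2(FPKM + 0.5), with limma 3.58.1 in R 4.3.3 (intensity trend, Benjamini-Hochberg over all tested genes, threshold 0.05), after a check on simulated data. This scale understates changes of low genes. Ratios and shares were computed in Python 3.11.15, with exact (Clopper-Pearson) 95% intervals. Members and 15 gene lists were chosen with earlier results of these data known. Named genes of a list are those past the threshold, the 2 of smallest p and the 2 most abundant; the 8 genes most like the globin mean, and the 5 most like it with group means subtracted, were added, leaving out predicted genes, pseudogenes and noncoding transcripts. Genes given by reads only, the untested markers, Lmo2 and Tal1 were chosen after their values were seen. Reads summed over a group are not scaled for the depth of its libraries. Alternatives were other pseudocounts, filters and scalings, no trend, voom, the replicate block and leaving out libraries; leaving out mCherry 3 with hND6 1 was chosen after the data were seen. Promoter windows are RefSeq's and transcripts GENCODE M21's.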

Additional observations from a re-analysis of the deposited data

How the results depend on the processing

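The log2 fold changes of the 4 globins and Alas2 stayed between 1.82 and 2.99 under all alternatives run, and those of Bpgm between 0.32 and 0.52 and of Fech between 0.03 and 0.23. The median over the 8 tested members ranged from 1.92 to 2.57 when single libraries were left out. The globin to Alas2 difference then ranged from 0.27 to 0.39 (log2), the globin to other red cell gene difference from 1.57 to 2.22, and the beta to alpha difference from -0.01 to 0.06; with geometric means the beta to alpha value was -0.047. The Hba-a2 share differed by 1.77 to 2.95 percentage points, and the Hbb-bt share by -0.90 to -0.48.

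The count of genes past the threshold was less stable: 7 as given, 1 with no filter on low values, 0 with voom (2424 unadjusted), 0 with the replicate block (1789 unadjusted), 1 without mCherry 3 and hND6 1, and 0 to 131 with single libraries left out: 0 without mCherry 2 (1947 unadjusted) and 131 without mCherry 3. It was 2 without hND6 1, 3 without hND6 2 and 1 without mCherry 1. Of the genes in the lists, 4 passed as given, all immunoglobulin or J chain genes, and 0 under those first 4 alternatives, with 39, 33, 26 and 34 unadjusted; with single libraries left out 0 to 4 passed (0 without hND6 1, mCherry 1 or mCherry 2, and 1 without hND6 2). The cause was not tested. Same-numbered libraries did not deviate together (correlations of deviations across genes -0.42, 0.36 and -0.20 for numbers 1, 2 and 3), so the numbers are not read as pairs. Epb42, Gata1 and the other genes under 0.5 FPKM rest on few reads and were not tested.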
